A study of Gallus gallus with 6 samples.

Results

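Microglia are the resident macrophages of the brain. They descend from blood-forming tissue outside the brain and enter it during embryonic life, where they clear dying cells and debris. Their survival depends on signals through the receptor CSF1R, and their identity on the transcription factors PU.1, encoded by SPI1, and IRF8. The genes described here are 10 genes known for their expression in macrophages and microglia: SPI1 and IRF8, the receptor CSF1R, the surface and signalling proteins PTPRC, ITGB2, LYN and LY86, the lysosomal proteins CTSS and LAPTM5, and CD74 of the class II antigen presentation route. They were chosen by name from a platform annotation that names 13008 genes. Each had at least 1 probe set of its own on the array, 20 probe sets in all, and a further probe set shared by CSF1R and FLT4 was left out because it names 2 genes.

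The values come from chick embryo brains (Gallus gallus) at stage 29, at 6 to 6.5 days of incubation. No treatment is given in the labels, and no strain. Embryos were sexed genetically and pooled by sex, 5 to 8 to a pool, and 3 female and 3 male pools were each measured on 1 Affymetrix chicken array, to ask which genes differ between the sexes. Each pool averages several embryos, so the spread between pools is not the spread between single embryos. Whole brain was used, with no enrichment for microglia. In such tissue fewer cells of a type and less RNA per cell cannot be told apart.

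The arrays behaved alike and matched their labels of sex. Over chicken probe sets Pearson's r was 0.991 to 0.995 for the 6 pairs of arrays of the same sex. HINTW, a gene of the female-specific W chromosome, read 13.1 to 13.3 in the female pools and 4.63 to 5.97 in the male pools. Of 11 brain markers matched on the array, such as SOX2, TUBB3 and STMN2, all 11 lay above the background level defined next, by their brightest probe sets. Of all chicken probe sets 63.3% did too, so this count alone says little about the tissue. All values are log2 expression values made by RMA, which combines the probes of a probe set into 1 value and puts the arrays on a common distribution. The deposited values carry no detection call. Background was therefore read from the array's 689 probe sets against viruses and other foreign sequences, and a probe set was taken as above background where its mean over the 6 pools exceeded their 95th percentile, 4.21. Different probe sets bind with different strength, so levels are set against this background and not ranked between genes.

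The genes fell into those with a measurable signal and those without. CSF1R, CTSS, CD74, LAPTM5, ITGB2 and IRF8 had at least 1 probe set above background, 6 of the 10 genes, while SPI1, PTPRC, LY86 and LYN had none. By probe set, 9 of 20 were above background, or 45.0%, against 63.3% of the 37693 chicken probe sets. The name of the set as microglia and macrophage genes is thus not borne out at this level for 4 of the 10. Which cells gave the signal of the others was not tested. With the viral median as the level all 10 genes lay above it, but so do most chicken probe sets. A LYN probe set with a mean of 3.10, next to that median of 3.09, lay at percentile 7.68 of chicken probe sets. This count therefore says little about the genes. PTPRC, the pan-leukocyte marker CD45, and SPI1 read higher than most viral probe sets but no higher than many. Their brightest probe sets lay at percentiles 87.4 and 80.0 of the viral ones. By contrast IRF8, CD74, CTSS, LAPTM5 and the brighter pair of CSF1R probe sets stood clear of them. The other pair of CSF1R probe sets did not, with means of 3.67 and 3.28. The plot of signal by pool shows this division.

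**Figure D1:**
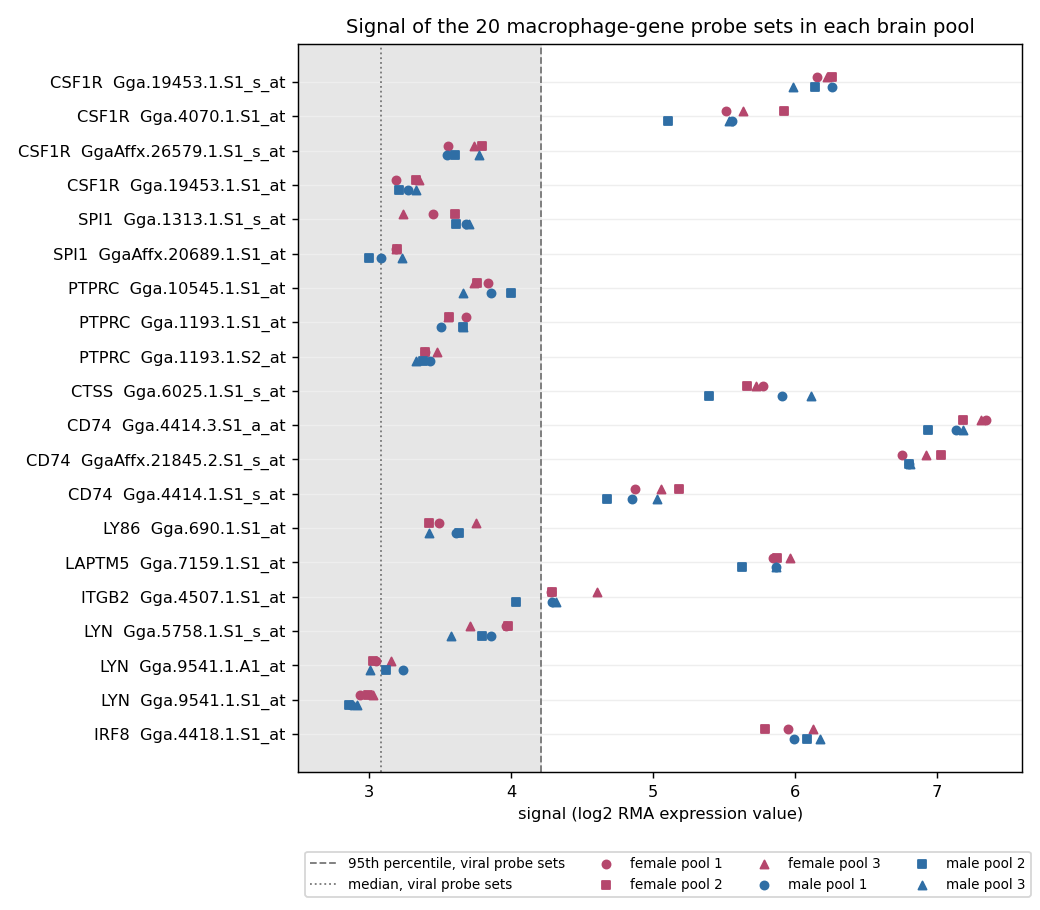
Signal (log2 RMA expression value) of the 20 probe sets of the 10 genes in each of 3 female and 3 male brain pools. The shaded area lies below 4.21, the 95th percentile of 689 viral probe sets, with probe sets of a gene in order of signal, and the dotted line marks their median of 3.09. The probe sets of SPI1, PTPRC, LY86 and LYN lie inside it, and female and male symbols overlap in most rows.

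None of the genes was called different between female and male brain. With limma, two-sided, over 3 pools per sex and with Benjamini-Hochberg adjustment across 37693 probe sets, 0 of the 20 reached an adjusted p under 0.05, against 209 of all chicken probe sets, or 0.554%. At an unadjusted p under 0.05 it was also 0 of 20 (limma), against 10.4% of all. Female minus male differences were above 0 in 14 of 20, against 47% of all, and ran from -0.23 to 0.29 log2 units, with adjusted p of 0.489 to 1.00. Probe sets of the same gene are not separate evidence. By the brightest probe set of each gene the difference was above 0 in 6 of 10. The 95% confidence intervals of all 20 probe sets lay within a 2-fold change in either direction, with outermost bounds of -0.48 and 0.64 (0.718-fold and 1.56-fold). That bounds the measured signal. For probe sets at background the interval says little about the transcript, since most of their signal need not come from it.

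**Figure D2:**
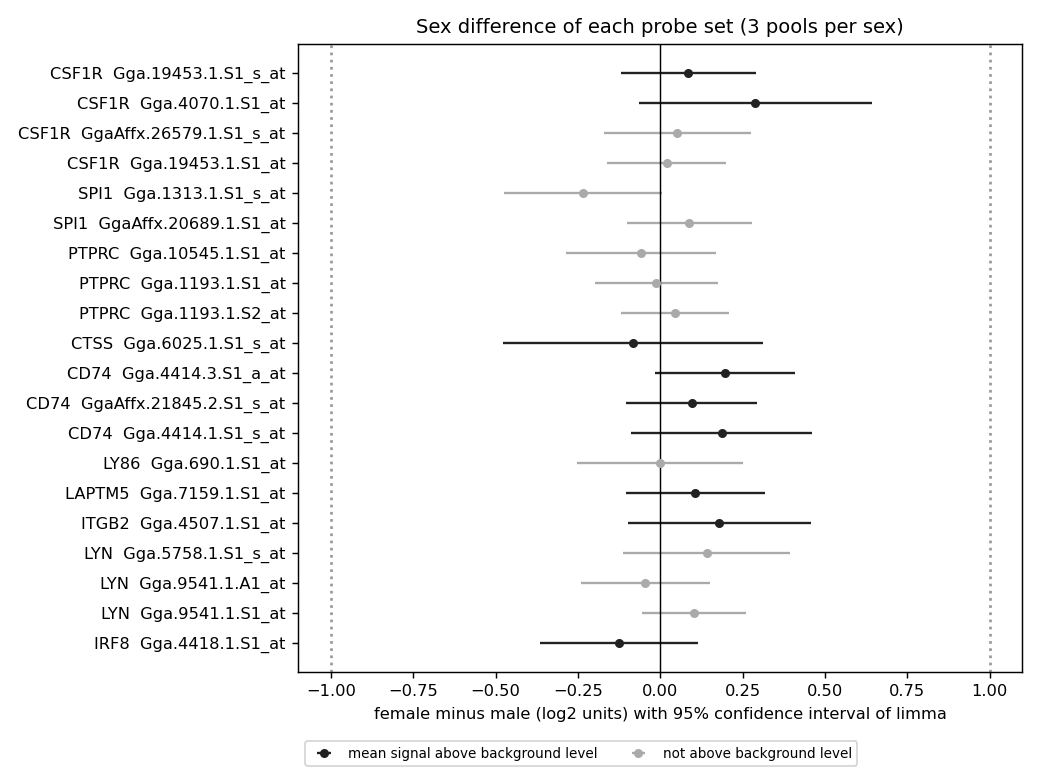
Female minus male difference (log2 units) of each of the 20 probe sets, with the 95% confidence interval of limma over 3 pools per sex. Black marks the 9 probe sets above background and grey the 11 others, and the dotted lines mark a 2-fold change. Every interval spans 0 and stays inside the dotted lines.

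Among the transcription factors, IRF8 lay above background and SPI1 did not. IRF8 works with PU.1 and is needed for microglia in mice and fish. Its 1 probe set read 5.95, 5.79 and 6.13 in female pools 1 to 3 and 5.99, 6.08 and 6.17 in male pools 1 to 3. The female and male ranges overlapped, with female pool 2 lowest and male pool 3 highest. The means were 5.95 ± 0.17 (SD, n = 3) and 6.08 ± 0.09, a female minus male difference of -0.13 (SE 0.10, limma adjusted p = 0.720). It was -0.04 without female pool 2 and -0.21 without female pool 3. This probe set lay 1.81 log2 units over the background level.

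SPI1 encodes PU.1, the master regulator of the macrophage lineage. Its brighter probe set read 3.45, 3.61 and 3.24 in the female pools and 3.68, 3.61 and 3.71 in the male pools. All 6 values lay under the background level, and female pool 3 was lowest. The groups did not overlap, but female pool 2 and male pool 2 were equal to 2 decimals, and 9.26% of all chicken probe sets had every female pool below every male pool. The difference of -0.23 (SE 0.10, adjusted p = 0.489, limma) was the most negative of the 20 probe sets. It was -0.14 without female pool 3 and -0.32 to -0.21 without 1 of the other pools. The other SPI1 probe set had the opposite sign, 0.09 (SE 0.08), at a mean of 3.15, close to the viral median of 3.09.

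CSF1R is the receptor tyrosine kinase that macrophages and microglia need to survive and multiply. It was represented by 4 probe sets that read very differently. The brightest read 6.15, 6.26 and 6.23 in the female pools and 6.26, 6.14 and 5.99 in the male pools. Female and male values overlapped, and male pool 3 was lowest. The next read 5.51, 5.92 and 5.63 in the female pools and 5.55, 5.10 and 5.54 in the male pools. Here male pool 2 stood low and female pool 2 high, with the other 4 pools within a narrow band. The other pair of probe sets lay at background, with means of 3.67 and 3.28, and so did the one shared with FLT4, at 3.40.

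The differences of the 4 CSF1R probe sets were all above 0 and none passed. The brightest gave 0.09 (SE 0.09, limma adjusted p = 0.788), with 0.015 without male pool 3 and 0.15 without male pool 1. The second gave 0.29 (SE 0.15, adjusted p = 0.567), the largest difference toward females of the 20 probe sets, with female pools at 5.69 ± 0.21 (SD, n = 3) and male pools at 5.40 ± 0.25. It was 0.14 without male pool 2 and 0.17 without female pool 2. These were the lowest male and the highest female pool, so leaving either out must lower the difference. Without 1 of the other pools it was 0.32 to 0.38, so its size depended on single pools. The probe sets at background gave 0.05 and 0.02.

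The ligands of CSF1R, CSF1 and IL34, were not matched to a probe set by name and are not analysed here. Of 11 listed attractants and growth factors that act on macrophages, 8 were matched, 4 of them above background by their brightest probe sets. Of all chicken probe sets, dimmer ones of a gene included, 63.3% were. None of the 8 passed, against 0.554% of all, and their median difference was -0.05, against -0.01 over all chicken probe sets. CXCL12, a chemokine that guides migrating cells, had the widest spread of those named here, with 5.43, 5.23 and 5.80 in the female pools and 6.00, 4.90 and 5.21 in the male pools. Its lowest value was again in male pool 2, and its difference was 0.12 (SE 0.27). These are values of its brightest probe set, and the mean difference over its 4 probe sets was -0.03. TGFB1, TGFB2 and TGFB3, growth factors of a family that mouse microglia need, gave -0.08 (SE 0.11), 0.19 (SE 0.12) and -0.07 (SE 0.18). TGFB1 and TGFB2 have 1 probe set each, and over the 2 of TGFB3 the mean difference was 0.03. The fractalkine gene CX3CL1, whose product neurons present to microglia, lay at background with a mean of 4.08.

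Among the surface proteins, ITGB2 was at the edge of detection. It encodes CD18, the beta chain shared by the leukocyte integrins. Its probe set read 4.28, 4.28 and 4.60 in the female pools and 4.28, 4.03 and 4.31 in the male pools. Female pool 3 stood above the other pools, and male pool 2 fell under the background level. The mean of 4.30 lay only 0.09 log2 units over that level. The difference was 0.18 (SE 0.12, limma adjusted p = 0.655). It was 0.07 without female pool 3, 0.09 without male pool 2 and 0.22 to 0.23 without 1 of the other pools. None of the 4 listed alpha chains that pair with CD18 was matched by name.

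PTPRC, the phosphatase CD45 carried by nearly all blood cells except mature red cells in mammals, was at background in each of its 3 probe sets. Their means were 3.81, 3.60 and 3.40, and their differences -0.06 (SE 0.10), -0.01 (SE 0.08) and 0.04 (SE 0.07). The brightest read 3.83, 3.76 and 3.74 in the female pools and 3.86, 4.00 and 3.66 in the male pools. None of its 6 values reached the background level, and the male pools spread around the female ones.

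LYN, a Src family kinase that phosphorylates inhibitory and activating receptors of myeloid and B cells, was also at background in all 3 of its probe sets. The brightest read 3.97, 3.97 and 3.71 in the female pools and 3.86, 3.80 and 3.57 in the male pools. The pools numbered 3 were lowest in both sexes, and the difference was 0.14 (SE 0.11, adjusted p = 0.705, limma). It was 0.06 without male pool 3 and 0.23 without female pool 3. The dimmest was the only other probe set of the 20 with no overlap between the sexes, at 2.94 to 3.03 in female and 2.85 to 2.92 in male pools. Of all chicken probe sets 6.93% had every female pool above every male pool. Without overlap in either direction were 2 of the 20, against 16.2% of all. The remaining LYN probe set, second in signal, gave -0.05 (SE 0.08). Of 8 related kinases matched, including the regulator CSK, 6 were above background by their brightest probe sets and none passed. Of all chicken probe sets, dimmer ones of a gene included, 63.3% were above background and 0.554% passed. SRC and FYN, which neurons also use, gave -0.01 (SE 0.09) and -0.10 (SE 0.17). Over their 7 and 2 probe sets the mean differences were -0.01 and 0.04, so the sign for FYN depended on the probe set.

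LY86, also called MD1, forms a complex with the receptor CD180 that modulates responses to bacterial lipids in mammals. Its probe set read 3.49, 3.42 and 3.75 in the female pools and 3.61, 3.63 and 3.42 in the male pools. The sexes shared the same mean of 3.56, with SDs of 0.17 and 0.12. CD180 was at background too, with a mean of 3.16 and a difference of 0.03 (SE 0.08).

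The lysosomal members were clearly measured. CTSS encodes cathepsin S, the protease that trims the invariant chain during loading of class II molecules. Its probe set read 5.78, 5.66 and 5.72 in the female pools and 5.91, 5.39 and 6.11 in the male pools. The 3 female pools lay close together, while the male pools held both the lowest and the highest value. The SD was 0.06 in females and 0.37 in males, and the difference was -0.08 (SE 0.17, adjusted p = 0.904, limma). It was -0.29 without male pool 2 and 0.07 without male pool 3, so its sign rested on single pools. CST3, the secreted cathepsin inhibitor cystatin C, gave -0.07 (SE 0.09).

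LAPTM5 is a lysosomal membrane protein of blood cells. Its probe set read 5.84, 5.87 and 5.96 in the female pools and 5.86, 5.62 and 5.87 in the male pools. Of these 6 values only that of male pool 2 stood apart, below the rest. The difference was 0.11 (SE 0.09, adjusted p = 0.733, limma). It was 0.03 without male pool 2 and 0.07 to 0.15 without 1 of the other pools.

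CD74 is the invariant chain, which escorts class II molecules to the lysosome and also serves as a receptor of the cytokine MIF in mammals. It had 3 probe sets, all above background. The brightest read 7.35, 7.18 and 7.31 in the female pools and 7.13, 6.93 and 7.18 in the male pools. Male pool 2 was lowest, and female pool 2 and male pool 3 were equal to 2 decimals. The second read 6.75, 7.02 and 6.92 in the female pools and 6.80 in each male pool. The third read 4.87, 5.18 and 5.05 in the female pools and 4.85, 4.67 and 5.03 in the male pools.

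The 3 CD74 probe sets gave differences of 0.20 (SE 0.09), 0.09 (SE 0.09) and 0.19 (SE 0.12), all above 0, and none passed (limma adjusted p = 0.516, 0.755 and 0.635). They measure the same gene on the same arrays and are not separate evidence. Without male pool 2 they were 0.12, 0.09 and 0.10. The second fell to 0.03 without female pool 2 and was 0.17 without female pool 1, and the third was 0.11 without female pool 2. In the assembly GRCg7b all 10 genes are autosomal, and CD74 and CSF1R lie on the same chromosome, 13, with 7 annotated genes between them.

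Of 17 listed partner proteins of these genes 9 were matched and 6 lay above background by their brightest probe sets. Of all chicken probe sets, dimmer ones of a gene included, 63.3% did. None of the 9 passed, against 0.554% of all, and their median difference was -0.07. An unadjusted p under 0.05 was reached by 2, against 10.4% of all chicken probe sets. Those 2 were class II partners of CD74 with differences below 0. BLB1, a class II beta chain with closely related copies that its probes may not separate, read 5.77, 5.95 and 5.95 in the female pools and 6.19, 6.02 and 6.13 in the male pools. DMA, which helps to load peptide, read between 5.94 and 5.98 in the female pools and between 6.04 and 6.33 in the male pools. In both genes every male pool was above every female pool, as in 9.26% of all chicken probe sets. Their differences were -0.22 (SE 0.09) and -0.23 (SE 0.09), and neither passed (limma adjusted p = 0.431 and 0.424). The values of BLB1 are those of its brightest probe set, and the mean difference over its 5 probe sets was -0.15. DMA has 1 probe set. Whether CD74 and its partners differ in their sex difference was not tested. CIITA, the activator that switches on class II genes, lay at background with a mean of 3.52.

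Male pool 2 was the low pool for most of the measured genes. Of the 9 probe sets above background, 6 had their lowest value there, those of CTSS, LAPTM5 and ITGB2, 2 of the 3 of CD74 and 1 of the 2 of CSF1R. Over all 20 probe sets it was 8. Over all chicken probe sets above background, 19.8% were lowest in male pool 2. Taking the brightest probe set of each of the 6 measured genes, the mean deviation from a gene's own mean was -0.18 log2 units in male pool 2, and 0.01, -0.04 and 0.11 in the female pools and 0.03 and 0.06 in the other male pools. Over all 10 genes, of which 4 lie at background, it was -0.08 in male pool 2 and 0.04 in female pool 3. IRF8 did not share the low value, at 0.06 above its mean in that pool. Members are not replicates, and no test was made of this pattern. The plot of deviations by pool shows it gene by gene.

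**Figure D3:**
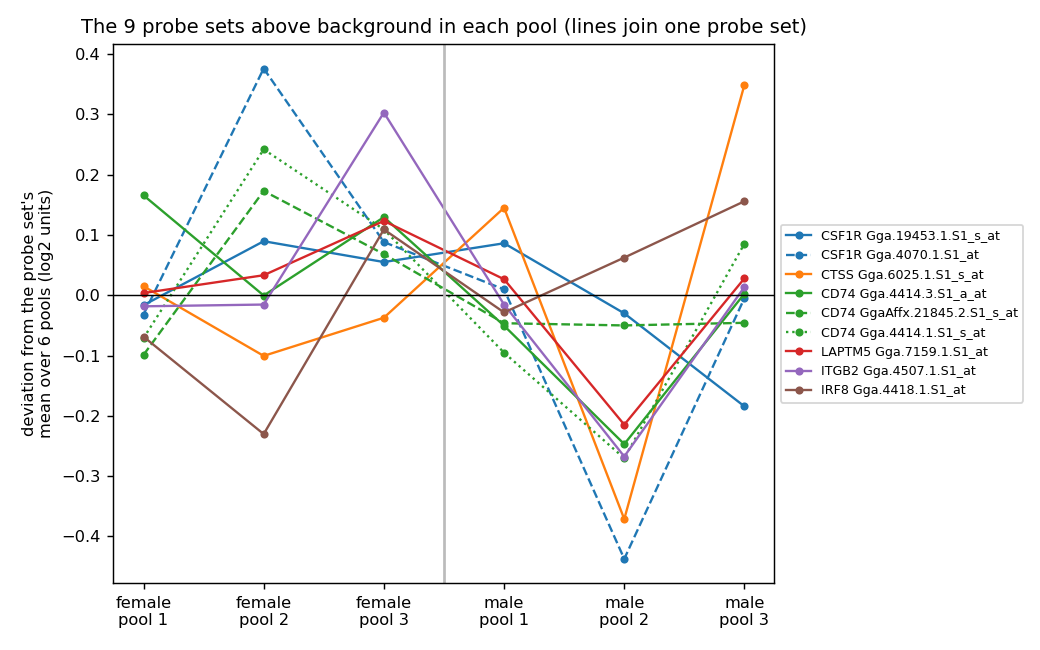
Deviation of each of the 9 probe sets above background from its own mean over 6 pools (log2 units), by pool, with lines joining the values of one probe set. Male pool 2 holds the lowest value of 6 of the 9, and IRF8 lies above 0 there.

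Gene lists of other cells had values on both sides of 0 in this pool. In male pool 2 the mean deviation of the matched list members above background was 0.08 for endothelium (12 genes), 0.02 for meninges and mesenchyme (6 genes), 0.01 for lymphocytes and granulocytes (9 genes), 0.09 for thrombocytes (3 genes), -0.07 for red blood cells (8 genes) and -0.06 for brain markers (11 genes). It was -0.02 for the other phagocyte genes (27 genes) and -0.09 for myeloid transcription factors (13 genes). For attractants and growth factors (4 genes, CXCL12 among them) it was -0.18. Partner proteins (6 genes) were at 0.07, and Src family kinases with CSK (6 genes) at 0.02. The attractants and growth factors were lower in male pool 3, at -0.20. Brain markers were lower in male pools 1 and 3, at -0.18 and -0.19. Of these lists only myeloid transcription factors were lowest in male pool 2. Each deviation is from a mean over both sexes, so it includes any sex difference. The part of cell composition in the low values was not tested. The 5 other genes whose profile over the 6 pools came closest to the mean profile of the measured members were IPO13, PPCDC, IVNS1ABP, SIMC1 and E2F5. Their root mean square differences from it were 0.01 to 0.02 log2 units, against a median of 0.18 over 10106 candidate probe sets. With 6 pools and so many candidates, close profiles arise readily, and the likeness is a description only.

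Other genes of the lineage also gave no call between the sexes. Of 61 listed surface, signalling and effector genes of phagocytes, 44 were matched by name and 27 lay above background. None passed in either direction, against 0.554% of all chicken probe sets. An unadjusted p under 0.05 was reached by 1, against 10.4% of all, and the median difference was -0.02. PSAP, a lysosomal activator protein with one of the highest signals of the list, gave 0.03 (SE 0.10). GRN, which encodes progranulin, and the chemokine receptor CXCR4 had the smallest p, with -0.26 (SE 0.10, limma adjusted p = 0.437) and -0.27 (SE 0.15, adjusted p = 0.590). Other brain cells also express PSAP, GRN and CXCR4.

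By their brightest probe sets 27 of the 44 matched phagocyte genes lay above background. Of all chicken probe sets 63.3% did, but that share also counts the dimmer probe sets of a gene, so the measures are unlike. Some genes of the list were named after their values were seen, and the choice set their split around the background level. Above it, the complement genes C1QA, C1QB and C1QC had means of 4.91, 4.45 and 4.77, the receptor TREM2 4.77 and the fractalkine receptor CX3CR1 4.74. All 5 means lay under the viral 99th percentile of 4.98, so these genes were near background. Not above it were the purine receptor P2RY13 at 3.79, the receptor GPR34 at 2.99, the oxidase subunit CYBB at 4.01, the kinase SYK at 3.43 and the lysozyme gene LYZ at 3.45. By these brightest probe sets the differences of the first 5 genes lay between -0.05 and 0.10, with SEs of 0.07 to 0.14. C1QB, CX3CR1 and TREM2 have 2 probe sets each, with mean differences over both of 0.09, -0.05 and -0.05. For C1QB and CX3CR1 that mean had the opposite sign to the brightest probe set, and for TREM2 the same sign. TREM2 read 4.46, 4.91 and 4.87 in the female pools and 4.61, 4.89 and 4.90 in the male pools, with female pool 1 and male pool 1 below the others. Among the 5 genes named here above background only C1QB had its lowest value in male pool 2.

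Of 24 blood and myeloid transcription factors 20 were matched, 13 were above background by their brightest probe sets and none passed. Of all chicken probe sets, dimmer ones of a gene included, 63.3% were above background and 0.554% passed. The median difference of the 20 was 0.06, and 4 reached an unadjusted p under 0.05, against 10.4% of all chicken probe sets. SALL1, which marks microglia in mice but is also a gene of neural progenitors, read 8.95, 8.82 and 9.17 in the female pools and 8.18, 8.66 and 8.53 in the male pools. Every female pool lay above every male pool, as in 6.93% of all chicken probe sets. Its difference was 0.53 (SE 0.14) and did not pass (limma adjusted p = 0.268). These are values of its brightest probe set, and the mean difference over its 2 probe sets was 0.34. IRF4, an interferon regulatory factor of lymphoid and myeloid cells, gave -0.25 (SE 0.07) at background. TAL1, a blood factor that also acts in midbrain neurons, gave 0.05 (SE 0.09) by its brightest probe set. The mean difference over its 4 probe sets was -0.05.

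Lists of other cell types gave few calls. The median female minus male difference was 0.04 for the 10 genes by their brightest probe sets, and between -0.16 and 0.06 for the lists other than brain markers. Red blood cell genes had the lowest median, -0.16 over 9 genes, with the embryonic globin HBZ at -0.94 (SE 0.25, limma adjusted p = 0.251). Thrombocyte and lymphocyte or granulocyte lists had medians of -0.05 and -0.07, over 5 and 13 genes. None of these passed, against 0.554% of all chicken probe sets. An unadjusted p under 0.05 (limma) was reached by 2 of the 9 red blood cell genes, against 10.4% of all. It was reached by 0 genes of the thrombocyte list and 0 of the lymphocyte or granulocyte list. The mean level of the 10 genes was 4.98 to 5.04 in female and 4.92 to 5.04 in male pools, and that of the red blood cell list 8.35 to 8.86 in female and 8.62 to 8.96 in male pools.

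Brain markers had differences above 0 in all 11 genes, against 47% of all chicken probe sets, from 0.02 for STMN2 to 0.55 for NES, with a median of 0.32. Only NES, the intermediate filament nestin of neural progenitors, passed (SE 0.08, adjusted p = 0.0380, limma). That is 1 of 11, against 0.554% of all chicken probe sets. An unadjusted p under 0.05 (limma) was reached by 4 of the 11, against 10.4% of all. The mean level of the 11 markers was 9.76 to 9.89 in female and 9.48 to 9.61 in male pools. The part of these differences in the values of the macrophage genes was not tested.

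**Figure D4:**
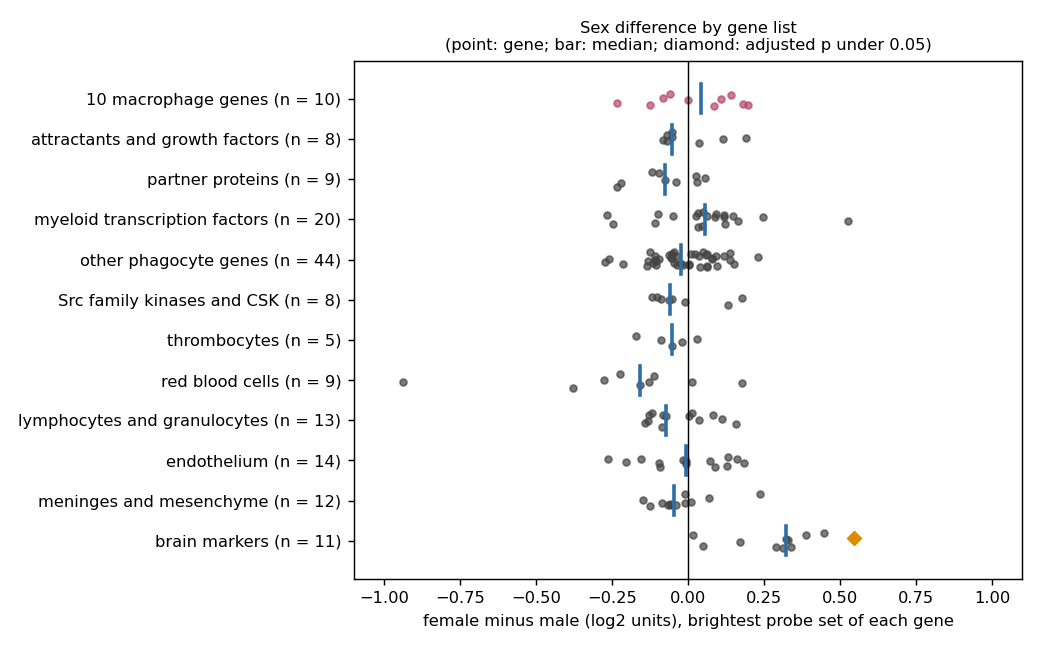
Female minus male difference (log2 units) of each gene by its brightest probe set, for the 10 macrophage genes and 11 lists, with a bar at each list's median. The 10 genes lie between -0.23 and 0.20 around a median of 0.04, while the 11 brain markers all lie above 0 and hold the only gene that passed, NES.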

How the data were processed

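Brain pools of chick embryos (3 female, 3 male) were measured on 1 array each. The authors deposited a log2 value for every probe set on each array. The submitters' processing notes name RMA and affy, with versions not given in the sources used here. That the scale is log2 follows from the values, from 2.28 to 14.1 with array medians of 4.84 to 4.87. Scanner files were not used here, so background correction and normalization could not be redone. RMA removes a difference shared by most genes.

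Of 38535 probe sets, 153 array controls or reporters and 689 against foreign sequences stayed out of the tests, which left 37693 with no filter on dim ones. Genes were named from the platform annotation, which gave 1 symbol for 27166 of these, several for 177 and none for 10350. Chromosomes came from RefSeq's annotation of GRCg7b by gene ID. The array names no build, so no coordinates are given.

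The test of female against male used lmFit and eBayes of limma 3.58.1 in R 4.3.3, with sex as the only term, two-sided, with Benjamini-Hochberg adjustment and a threshold of 0.05. SE and 95% intervals are limma's, and SD is the spread over 3 pools. The procedure was tested on simulated data with planted changes, all larger than any difference of the 20 probe sets. That test does not show how well smaller changes would be found. Precision is limited by the number of arrays. Of 205 entries in 11 gene lists 153 were matched by symbol, each gene by its brightest probe set. The genes, the lists and the rule for naming were chosen with earlier results of these data known. Every probe set of the 10 genes is described, and any partner, attractant or Src kinase could be named. From other lists the genes past the threshold or, failing that, of smallest p or highest signal could be named. The phagocyte genes named after their values were seen, and the brain markers SOX2, TUBB3 and STMN2, were named outside this rule. The likeness rule took genes at or above the median signal whose range over pools was at least that of the reference profile.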

Additional observations from a re-analysis of the deposited data

How the results depend on the processing

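The count of 0 probe sets of the 10 genes past the threshold was the same under all 12 alternatives: without each pool in turn, with the replicate number as a block, with eBayes set to trend and robust, with array weights, with dim probe sets left out, with arrays centred on their medians and with quantile normalization. The lowest adjusted p of any of these probe sets under an alternative was 0.352 (limma), with the replicate block, for the brightest probe set of CD74. With that block the count over all chicken probe sets was 245 in place of 209. The deviations of pools with the same number correlated at 0.01, 0.15 and 0.32, and those of pools with other numbers at -0.24 to 0.11. The main fit did not take the shared numbers as pairs, and whether they mark pairs was not tested. Leaving out 1 pool gave 113 to 161 chicken probe sets, the lowest without female pool 2. Each of these fits had 1 pool fewer, and the cause of the lower counts and their spread was not tested.

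Over the 12 alternatives the sign of a difference changed in 13 of 229 pairs of probe set and alternative, in 6 probe sets. Of these, that of CTSS lies above background and the others do not. Over the removals of 1 pool the differences ran from -0.288 to 0.0721 for CTSS, from -0.011 to 0.0692 for the dimmest CSF1R probe set, from -0.149 to 0.0203 for the brightest of PTPRC, from -0.0649 to 0.0153 for its second, from -0.0988 to 0.0664 for LY86 and from -0.102 to 0.0119 for the second of LYN. With array weights the second PTPRC probe set gave 0.0044 and LY86 -0.0013. The cause was not tested.

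The 6 genes above background became 10 with the viral median as the level, which most chicken probe sets also exceed. They became 5 with the viral 99th percentile. They were also 5 where every probe set of a gene, or every pool, had to lie above the level, and 6 without each pool in turn. The 5 were not always the same genes. ITGB2 dropped out with the 99th percentile and where every pool had to pass. CSF1R dropped out where every probe set had to pass.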
